A study of Arabidopsis thaliana with 4 samples.

Results

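Auxin response genes of 3 families were compared between axillary shoots and axillary buds of the plant Arabidopsis thaliana. They comprised 3 GH3 genes (GH3.1, GH3.3 and WES1, also called GH3.5), 3 Aux/IAA genes (IAA20, IAA29 and IAA30) and the homeodomain gene HAT2. These 7 genes were taken by name from the annotation of the ATH1 array, a short-oligonucleotide array for the Arabidopsis genome, and each had 1 probe set, out of 13286 loci with a named probe set and 22746 probe sets other than controls. The shoots were taken 24 h after decapitation, the removal of the main shoot apex, and the buds before it. Each group had 2 arrays, called shoot arrays and bud arrays here. All plants were of the strain Col-0, a standard laboratory accession, and grew at 22 °C under continuous light, and the labels give neither plant age nor the number of plants pooled. Intact plants at the later time were not among the samples, so decapitation, wounding, further age and tissue make-up cannot be told apart.

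Auxin made in the main shoot apex moves down the stem and holds the axillary buds below it back, and removing the apex releases them to grow. Inside a cell, auxin joins TIR1/AFB receptors to Aux/IAA proteins, which are then degraded and no longer repress the auxin response factors that switch target genes on. Many GH3 and Aux/IAA genes are themselves fast targets of auxin: GH3 enzymes of this group join the hormone to amino acids and so lower its active level, and new Aux/IAA proteins restore repression. Transcript levels of such genes are therefore often used as readouts of auxin response, although each also has other inputs.

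Among these 7 genes, WES1 was 4.32-fold lower and GH3.3 was 2.37-fold higher in the shoots, and both passed the test. HAT2 was tested and did not pass. GH3.1, IAA20, IAA29 and IAA30 lay below the lowest mean signal tested, a geometric mean of 23.1 over the 4 arrays. That line is the edge of a filter that kept the upper 60% of probe sets, and not a limit of detection. Background was not measured, so whether the transcripts of these genes were above it was not tested. Of the 3 genes tested, 1 rose and 1 fell, where 10.2% of all 13648 tested probe sets rose and 12.0% fell, taking an adjusted p no greater than 0.05 from limma (Benjamini-Hochberg) as the threshold. A count of 3 is too small to set against that background.

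**Figure D1:**
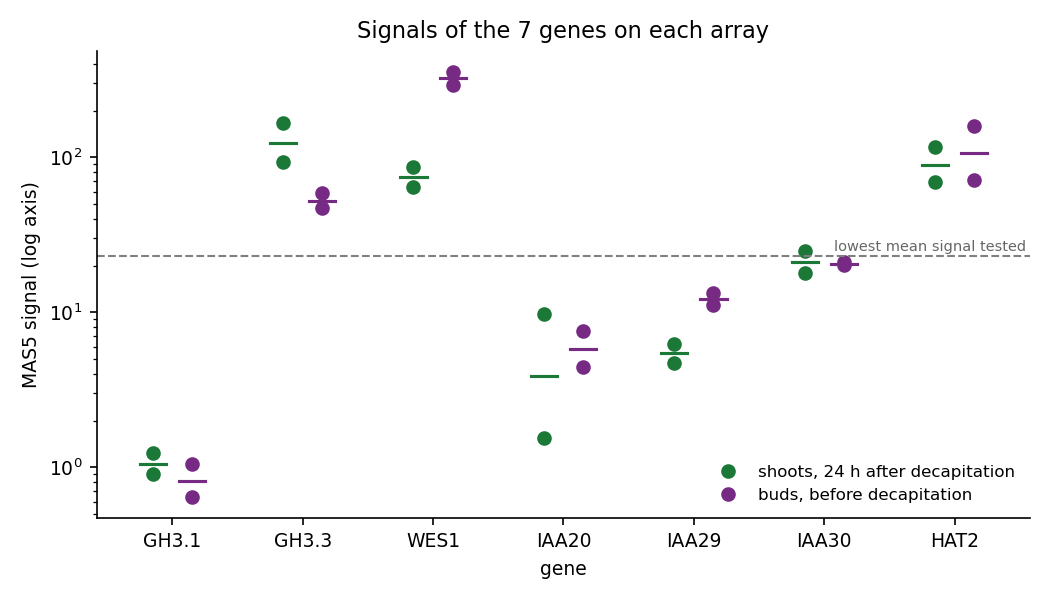
MAS5 signal (log axis) of the 7 genes, with shoots 24 h after decapitation in green and buds before decapitation in purple. Points are single arrays, bars are geometric means of 2 arrays, and the dashed line at 23.1 is the lowest mean signal tested. WES1 and GH3.3 separate the groups in opposite directions, and the geometric means of GH3.1, IAA20, IAA29 and IAA30 lie under the line.

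Signals were the MAS5 values deposited for each probe set, on a linear scale and scaled to a common mean on each array. Signals of different genes are not compared here, because they depend on the probes as well as on the transcript. The median signal was 40.9 and 40.6 on the shoot arrays and 46.3 and 43.6 on the bud arrays. Log2 signals of tested probe sets correlated across genes at r = 0.957 between the shoot arrays and 0.952 between the bud arrays. Between a shoot array and a bud array r was 0.808 to 0.895; genes are not independent replicates. With 2 arrays a group, precision is limited throughout, and the smallest two-sided p of an exact permutation test is 0.333. Whether the arrays of a group stand for separate plants is not stated in the labels, and the spread that p-values measure may therefore be technical.

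The labelled tissues could be checked against few markers. Of 8 genes of the shoot meristem and organ boundary, 2 had a named probe set: LAS, a gene needed to form axillary meristems, had signals of 19.6 and 16.1 on the shoot arrays and 15.4 and 16.7 on the bud arrays, and the stem cell gene CLV3 had 4.39 and 1.22 on the shoot arrays and 1.06 and 7.32 on the bud arrays. Both lay below the lowest mean signal tested, so they neither mark nor contradict the labels. Of 8 genes of green leaf tissue the array named RCA, the activase of the carbon-fixing enzyme, with 717 and 329 on the shoot arrays and 469 and 526 on the bud arrays; the groups overlapped. The other markers of these lists, and the lists of vascular tissue and of flowers (8 genes each), are not analysed here.

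WES1 encodes a GH3 enzyme that conjugates auxin and, in Arabidopsis, also salicylic acid, and its overexpression gives dwarfed plants. Its signal was 86.3 and 64.7 on the shoot arrays and 355 and 293 on the bud arrays. Both shoot arrays were far below both bud arrays, and the arrays within a group lay close together. Any 1 bud array exceeded any 1 shoot array by 3.4 to 5.5 times. The limma log2 fold change was −2.11 with a 95% interval of −2.63 to −1.59 (SE 0.228, adjusted p = 0.00218). WES1 had the 115th lowest log2 fold change of the 13648 tested probe sets, so 0.835% of them fell further. The fitted decrease passed the threshold with any 1 array left out, with log2 fold changes of −2.32 to −1.90.

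GH3.3 encodes an enzyme of the same kind, and its gene is a widely used marker of rapid auxin induction. Its signal was 167 and 92.8 on the shoot arrays and 47.3 and 58.4 on the bud arrays. Both shoot arrays were above both bud arrays, but they differed from each other by 1.80 times, against 1.24 times for the bud arrays. The increase between single arrays ran from 1.59 to 3.54 times. Its log2 fold change was 1.25 with a 95% interval of 0.54 to 1.95 (limma, SE 0.305, adjusted p = 0.0244), the 485th highest of those tested. The call depended on single arrays. It was lost without shoot array 1, where the log2 fold change was 0.82, and without bud array 1, where it was 1.09. Fewer of all tested probe sets were called higher in those fits too.

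The 2 enzyme genes thus moved in opposite directions on the same arrays. The log2 change of WES1 minus that of GH3.3 was −3.36, and over the 4 pairs of a shoot array with a bud array it lay between −3.87 and −2.85. This difference is taken within each array and does not change when an array is scaled by a single factor. Scaling does matter for single changes: over all tested probe sets the median log2 change was −0.06 as deposited, 0.08 with the array medians set equal and 0.10 with scaling on spiked control probe sets. Relative to the deposited median, WES1 was at −2.05 and GH3.3 at 1.31. Of the calls among all tested probe sets, 45.9% were higher in shoots as deposited, 61.1% with the medians set equal and 63.6% with spike scaling; WES1 fell and GH3.3 rose with adjusted p below the threshold under each.

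A measure of RNA quality moved with the groups. For actin, the signal of the 3' control divided by that of the 5' control was 0.990 and 1.14 on the shoot arrays and 1.66 and 1.38 on the bud arrays, and an older actin set gave 2.13 and 3.19 on the shoot arrays and 5.81 and 6.67 on the bud arrays. The same ratio was also lower on both shoot arrays than on both bud arrays for an older GAPDH set, at 0.714 and 0.601 on the shoot arrays and 1.51 and 0.812 on the bud arrays. An older ubiquitin set had the same order, at 0.966 and 0.973 on the shoot arrays and 1.04 and 1.02 on the bud arrays. The groups overlapped for the newer GAPDH set (1.142 and 0.938 on the shoot arrays, 1.198 and 1.081 on the bud arrays) and the newer ubiquitin set (0.718 and 0.887 on the shoot arrays, 0.704 and 0.963 on the bud arrays). The part of these ratios in the changes of WES1 and GH3.3 was not tested. In whole buds and shoots, fewer cells that express a gene and less of its RNA per cell cannot be told apart.

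**Figure D2:**
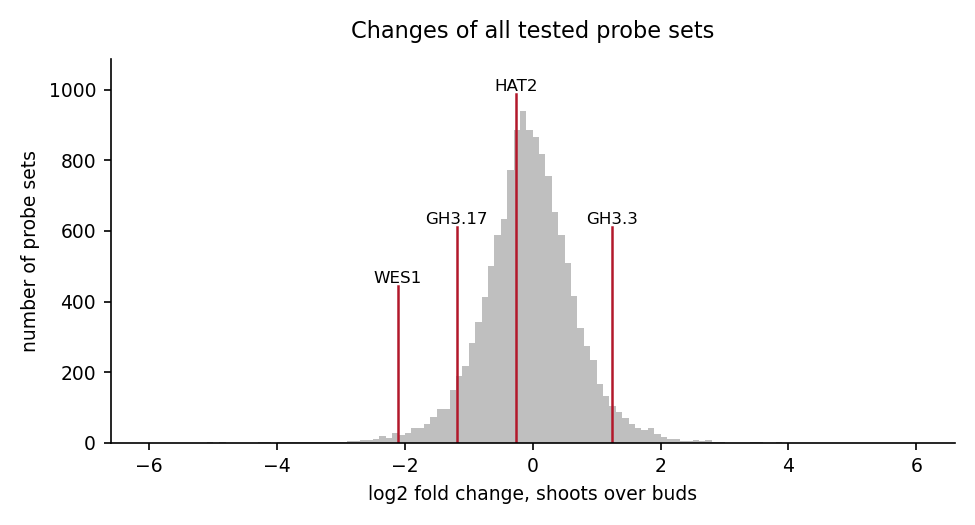
Number of probe sets (vertical axis) by log2 fold change of shoots over buds (horizontal axis) for the 13648 tested probe sets, with lines at HAT2, WES1, GH3.3 and GH3.17. HAT2, at −0.26, lies near the middle, GH3.3, at 1.25, and GH3.17, at −1.19, on the flanks and WES1, at −2.11, in the lower tail; the heights of the lines carry no value.

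The third GH3 gene of the set, GH3.1, is a close relative of GH3.3 and also known as auxin-induced. Its signal was 0.899 and 1.23 on the shoot arrays and 1.04 and 0.647 on the bud arrays. All 4 signals were far below the lowest mean signal tested. The groups overlapped, and no fold change is given at this level.

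The rest of the GH3 family was read from a list of 13 loci, of which 7 had a named probe set and 4 were tested. Of these 4, 1 rose (GH3.3), 2 fell (WES1 and GH3.17) and 1 did not pass (GH3.9), where 10.2% of all tested probe sets rose and 12.0% fell (22.1% together). The median log2 fold change of the 4 was −0.66, beside −0.06 for all tested probe sets, and 4 loci are too few to set against either. GH3.17, which encodes an enzyme that joins auxin mainly to glutamate, had signals of 29.8 and 21.1 on the shoot arrays and 58.5 and 55.9 on the bud arrays. The groups did not overlap, and GH3.17 was 2.28-fold lower in the shoots (limma log2 fold change −1.19, SE 0.281, adjusted p = 0.0215). That call was lost without shoot array 1, shoot array 2 or bud array 1. The log2 fold change was then −1.44, −0.94 and −1.16, with SE of 0.347, 0.334 and 0.372. GH3.9, a gene known from root growth, had overlapping signals of 20.1 and 33.8 on the shoot arrays and 24.3 and 33.6 on the bud arrays, and its fitted log2 fold change of −0.13 (95% interval −0.94 to 0.68) turned slightly positive under other scalings. The other listed loci with a named probe set, AT1G23160 and AT5G51470, had signals of at most 5.14 on the shoot arrays and 7.20 on the bud arrays.

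**Figure D3:**
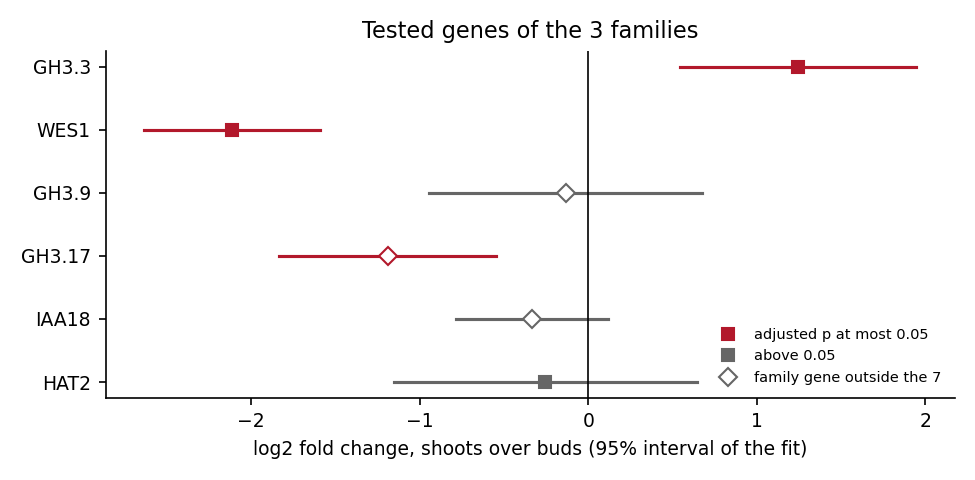
Limma log2 fold change of shoots over buds (horizontal axis) with its 95% interval for the 6 tested genes of the GH3, Aux/IAA and HD-ZIP II families (rows). Red marks an adjusted p of 0.05 or less, squares are genes of the set of 7 and open diamonds other family genes. The intervals of WES1 and GH3.17 lie below 0 and that of GH3.3 above it, while those of GH3.9, IAA18 and HAT2 span 0.

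The 3 Aux/IAA genes of the set were dim. IAA20 and IAA30 encode closely related proteins that lack the degron through which auxin destabilises other Aux/IAA proteins, and IAA29 is known as a gene induced by auxin and by shade. IAA29 had signals of 6.28 and 4.72 on the shoot arrays and 11.1 and 13.3 on the bud arrays. Both shoot arrays were below both bud arrays, and the groups did not overlap, in 1 direction or the other, at 55.1% of all probe sets. In the fit of all 22746 probe sets its log2 fold change was −1.16 (95% interval −2.35 to 0.03, limma adjusted p = 0.204). A decrease was thus not detected with these arrays.

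IAA20 had signals of 9.78 and 1.55 on the shoot arrays and 7.56 and 4.42 on the bud arrays. The shoot arrays bracketed the bud arrays and differed from each other by 6.33 times, and the 95% interval of the log2 fold change in the fit without a filter, −2.76 to 1.62, allows a large change either way. IAA30 had signals of 24.9 and 18.0 on the shoot arrays and 20.3 and 21.0 on the bud arrays. The shoot arrays again lay on either side of the bud arrays. Its log2 fold change was 0.04 (95% interval −0.78 to 0.85, limma adjusted p = 0.965). Any change within that interval was compatible with the data.

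Of 29 listed Aux/IAA loci, 7 had a named probe set and 1, IAA18, was tested. IAA18, a repressor gene with the usual degron, had signals of 166.6 and 167.9 on the shoot arrays and 226 and 196 on the bud arrays. Its groups did not overlap, but the log2 fold change of −0.33 (95% interval −0.78 to 0.12) did not pass (limma adjusted p = 0.255). Among the dim genes, both shoot arrays were above both bud arrays for IAA31, at 7.45 and 9.25 on the shoot arrays and 5.96 and 4.99 on the bud arrays. The same order held for IAA33, at 14.4 and 13.8 on the shoot arrays and 11.4 and 12.4 on the bud arrays. IAA34 overlapped, at 7.95 and 4.79 on the shoot arrays and 5.84 and 3.62 on the bud arrays. Without a filter 0 of these 7 loci passed in limma, where 4.45% of all probe sets rose and 5.60% fell (10.1% together), and 0 had an unadjusted p under 0.05, with IAA29 lowest at 0.0554; the auxin-inducible family members most used as markers are not analysed here.

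HAT2 encodes a homeodomain-leucine zipper repressor of the HD-ZIP II family that auxin induces quickly in seedlings. Its signal was 116 and 68.9 on the shoot arrays and 158 and 71.9 on the bud arrays. The groups overlapped, and the shoot arrays differed from each other by 1.68 times and the bud arrays by 2.20 times. The log2 fold change was −0.26 with a 95% interval of −1.15 to 0.64 (limma, adjusted p = 0.671), and its sign depended on the arrays used: it was 0.12 without shoot array 2 and 0.31 without bud array 1. Any change within that interval was compatible with these arrays. HAT2 was the 1 gene of 10 listed HD-ZIP II loci with a named probe set.

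**Figure D4:**
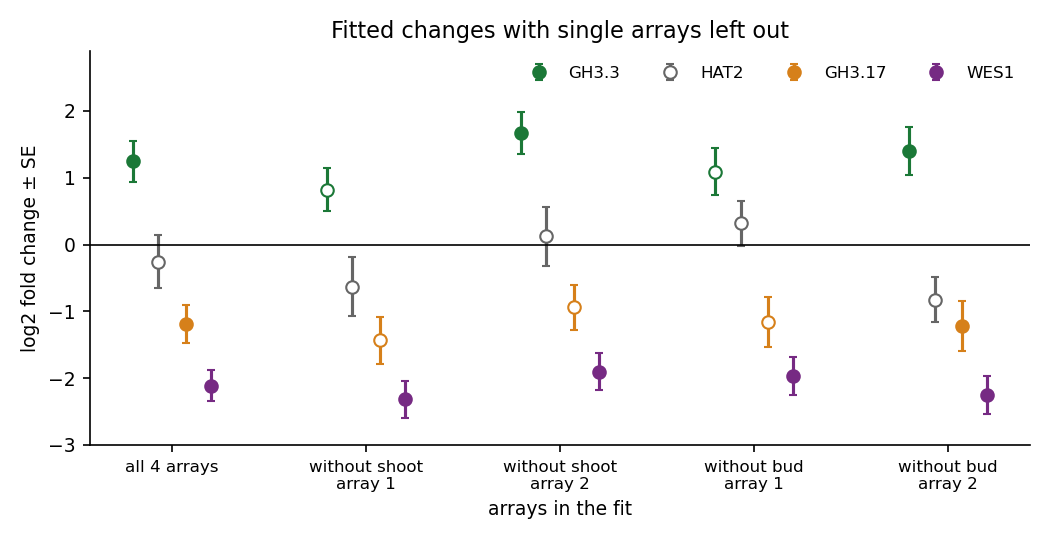
Limma log2 fold change ± SE of shoots over buds (vertical axis) for GH3.3, HAT2, GH3.17 and WES1, with all 4 arrays and with each array left out in turn (horizontal axis). Filled points passed an adjusted p of 0.05. WES1 passed in all 5 fits, between −2.32 and −1.90, GH3.3 and GH3.17 lost the call in some, and HAT2 changed sign.

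Few auxin loci had a named probe set, and loci under unnamed probe sets were not read. Over all auxin lists, those of the 3 families above included, 24 of 236 loci had a named probe set and 10 were tested. Of those tested, 1 rose (GH3.3) and 2 fell (WES1 and GH3.17), all from the GH3 family described above. The median log2 fold change of the 10 was −0.11. Of all tested probe sets 22.1% were called, with a median of −0.06, and 10 loci do not show a difference from that share. For auxin synthesis, 3 of 16 listed loci had a named probe set. All were YUC genes, whose products are flavin monooxygenases that make auxin. YUC2 had signals of 48.7 and 39.9 on the shoot arrays and 30.8 and 30.7 on the bud arrays (limma log2 fold change 0.52, 95% interval −0.09 to 1.12, adjusted p = 0.192). YUC6 had 34.5 and 30.2 on the shoot arrays and 28.2 and 24.1 on the bud arrays (limma log2 fold change 0.31, 95% interval −0.34 to 0.96, adjusted p = 0.468). YUC4, below the lowest mean signal tested, had 35.8 and 14.4 on the shoot arrays and 13.3 and 12.7 on the bud arrays. For all 3 YUC genes both shoot arrays were above both bud arrays, where the groups did not overlap at 65.2% of tested and 55.1% of all probe sets, and 0 passed in limma, nor was the unadjusted p of any under 0.05 (lowest for YUC2, at 0.0848).

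Of 11 listed loci for other auxin conjugation, release and oxidation, 4 had a named probe set and 2 were tested. UGT74D1, a glucosyltransferase that can act on auxin, had signals of 112 and 146 on the shoot arrays and 97.3 and 102 on the bud arrays, with no overlap (limma log2 fold change 0.36, 95% interval −0.15 to 0.87, adjusted p = 0.275). AT1G14130 had 44.7 and 40.2 on the shoot arrays and 47.6 and 42.1 on the bud arrays, which overlapped (limma log2 fold change −0.08, adjusted p = 0.846). Neither passed, and whether these loci differ from the GH3 family was not tested. The TIR1/AFB receptors, the auxin response factors, the auxin transporters and the SAUR family are not analysed here.

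Of the 40 listed LBD loci, which encode plant transcription factors, 2 had a named probe set and 0 were tested. LBD29, an auxin-induced gene of lateral root formation named after its values were seen, had signals of 0.993 and 1.26 on the shoot arrays and 6.42 and 5.57 on the bud arrays. The groups did not overlap, but all 4 signals were far below the lowest mean signal tested, so no fold change is given, and the gene did not pass in the fit without a filter (limma adjusted p = 0.0905). LBD16, also known from lateral root formation, had overlapping signals of 11.2 and 12.9 on the shoot arrays and 7.05 and 27.7 on the bud arrays.

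Probe sets with 1 named locus were ranked by how near their log2 signals, centred on their own mean over the 4 arrays, lay to those of WES1 and GH3.3, by Euclidean distance. Nearest to WES1 were AT5G24210 (distance 0.207), AT5G59670 (0.252) and AT2G36970 (0.271). AT5G24210 had signals of 21.1 and 18.7 on the shoot arrays and 86.7 and 79.6 on the bud arrays. Nearest to GH3.3 were AT1G10780 (distance 0.138), AT5G06590 (0.173) and HLL (0.176), a gene for a mitochondrial ribosomal protein known from ovule growth. AT1G10780 had 131 and 69.5 on the shoot arrays and 33.0 and 45.9 on the bud arrays. Its gap between the shoot arrays is like that of GH3.3 because it was picked by distance over these signals. With 4 arrays of 2 groups such nearness is a description of these arrays, and how many genes of the same direction lie close was not counted.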

How the data were processed

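Total RNA was extracted with a column kit and labelled with biotin by 3' in vitro transcription, per the labels' protocols. The authors deposited 1 linear intensity per probe set and array; the submitters' processing notes name MAS5 and GCOS, without versions. Leaving out 2% of probe sets at either end, every array averaged 100.0, so the arrays had been scaled to a common target. Detection calls were not used.

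Control probe sets (64 of 22810) were left out. Probe sets in the upper 60% by mean log2 signal were tested in R 4.3.3 with limma 3.58.1 (linear model and moderated statistics, with a trend of variance on signal) on log2 signals of all 4 arrays, with Benjamini-Hochberg adjustment over 13648 probe sets and no pseudocount. Fold changes are ratios of geometric means. Genes below the filter were read from the same fit of all 22746 probe sets. The procedure was tested on simulated data. Alternatives were other filters, scalings and variance models, a pseudocount of 0.910, a replicate block and each array left out. Names came from the platform annotation and a TAIR10.1 gene table: 13513 probe sets had 1 gene, 503 several and 8730 were not listed.

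The 7 genes and the lists were chosen with earlier results of these data known, so their direction is not independent evidence. In each of the 14 lists (10 auxin, 4 marker), with the brightest probe set per locus, up to 4 tested loci were to be named by smallest p and largest change, with all measured GH3 and Aux/IAA genes and the 3 nearest patterns of each called gene. Planned searches of promoters and proteins were not run, as no sequences were used here.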

Additional observations from a re-analysis of the deposited data

How the results depend on the processing

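For the 7 genes, 70 of 76 results under other settings kept their direction and side of the threshold, while 2 lost the call and 4 changed sign. Most of the 70 came from genes that were not called, where staying on that side of the threshold says little about robustness. WES1 passed under all 12 alternatives, with adjusted p up to 0.00869. GH3.3 passed under all but those without shoot array 1 (0.82) or bud array 1 (1.09), and leaving out 1 array gave 0.82 to 1.67. GH3.17 missed the threshold with 3 of the 4 arrays left out in turn (−1.44 to −0.94), and was too dim to be tested with the stricter filter. Among genes that were not called, leaving out 1 array changed the sign of HAT2 (−0.82 to 0.31), IAA20 (−1.90 to 0.76), IAA30 (−0.20 to 0.27), GH3.9 (−0.51 to 0.24) and AT1G14130 (−0.17 to 0.010). With array medians set equal, quantile normalization and spike scaling, GH3.9 was at 0.0072, 0.040 and 0.028, and AT1G14130 at 0.064, 0.059 and 0.085; the cause was not tested. The combinations with no filter, used for the dim genes, were chosen after seeing the data.

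Leaving out 1 array gave 230 to 1181 probe sets higher and 432 to 1468 lower, against 1388 and 1635 with all arrays; the lowest counts came without shoot array 1, and 944 were lower without bud array 1. Spike scaling gave 1026 lower. With no filter 1012 were higher and 1274 lower. The arrays share replicate numbers, but the labels do not say that these mark pairs, and there are only 2; same-numbered arrays' deviations correlated at 0.225 across probe sets. With the replicate block 2109 probe sets were higher and 2548 lower, with WES1 and GH3.3 still called. Alternative windows for a promoter motif were not run. No alternative run brought GH3.1, IAA20, IAA29 or IAA30 past the threshold; background was not measured here, so its part was not tested.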
